A study of Mus musculus with 27 samples.

Results

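Imprinted genes were followed in hepatocytes, the main cell type of the liver, of 12-week-old females from 9 inbred lines of mice. CAST/EiJ, PWK/PhJ and WSB/EiJ are wild-derived, and A/J, NOD/ShiLtJ, DBA/2J, 129S1/SvImJ, C57BL/6J and NZO/HlLtJ are laboratory strains. Each strain had 3 RNA sequencing libraries, which the labels call biological replicates, so that there were 27 libraries in all. The labels name no treatment or altered gene, and no strain is a control. The set holds 36 known imprinted genes, taken by their GENCODE symbols from the 43346 genes of the deposited count table, and all 36 had a row. Only the RNA counts are used here.

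An imprinted gene is read mainly from the copy inherited from the mother or mainly from the copy inherited from the father. For many of these genes, though not all, the choice is set by DNA methylation laid down in the germ line at control regions. Such regions often govern several neighbouring genes and a long non-coding RNA. Many such genes act on growth before birth and are turned down in the liver after it. Some are imprinted only in certain tissues, such as Ube3a in neurons. In an inbred strain both copies carry the same sequence, so the counts sum the parental copies and say nothing about the imprint itself.

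Library totals ran from 17015956 to 35078511 estimated counts before rounding. At this depth 1 count corresponded to between 0.0253 and 0.0516 CPM (counts per 1e+06, after scaling for library composition). Markers of hepatocytes summed to between 100322 and 317606 CPM in every library, while markers of liver endothelial cells summed to between 70.0 and 900.4 CPM and those of stellate cells, the fibroblast-like cells of the liver, to between 33.0 and 208.1 CPM. None of these markers was at 0 in all libraries. PWK/PhJ replicate 1 stood apart, with the highest endothelial and stellate sums and with 442.1 CPM of Kupffer cell (liver macrophage) markers, where the other libraries held 35.0 to 292.5 CPM. Calls of imprinted genes in PWK/PhJ are therefore given with and without that library.

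Meg3, Rian, Peg3 and Grb10, which differed among the strains, are shown here by the 250 bases before their start sites, from RefSeq on GRCm38.p6, because Meg3 and Rian were high in the same strain and Peg3 and Grb10 in others. Meg3 and Rian are non-coding RNAs of the same cluster, Peg3 encodes a zinc finger protein and Grb10 an adaptor protein that dampens insulin receptor signalling, with a pair of start sites shown. The sequences read 5′ to 3′ on the strand of the gene. Capitals mark the hexamer TGCCGC, searched on both strands (as GCGGCA on the other), which the zinc finger protein ZFP57 recognises when methylated, and the palindrome TGACGTCA, the cAMP response element. In these windows no match of the first motif overlapped a match of the second.
Meg3, chr12:109540746-109540995, + strand: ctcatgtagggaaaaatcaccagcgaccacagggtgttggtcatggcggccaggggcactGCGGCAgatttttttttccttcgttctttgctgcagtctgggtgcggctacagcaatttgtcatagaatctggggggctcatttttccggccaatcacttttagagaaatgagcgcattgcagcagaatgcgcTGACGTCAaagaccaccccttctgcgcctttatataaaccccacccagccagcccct
Rian, chr12:109603695-109603944, + strand: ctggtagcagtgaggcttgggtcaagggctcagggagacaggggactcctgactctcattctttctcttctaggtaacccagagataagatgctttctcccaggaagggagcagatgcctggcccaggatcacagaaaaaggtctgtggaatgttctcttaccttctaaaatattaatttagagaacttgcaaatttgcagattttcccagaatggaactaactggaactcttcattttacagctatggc
Peg3, chr7:6730420-6730669, - strand: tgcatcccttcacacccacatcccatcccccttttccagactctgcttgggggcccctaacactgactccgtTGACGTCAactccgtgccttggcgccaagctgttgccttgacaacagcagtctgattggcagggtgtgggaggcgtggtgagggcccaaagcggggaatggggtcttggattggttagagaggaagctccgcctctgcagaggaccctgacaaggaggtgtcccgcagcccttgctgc
Grb10, downstream start, chr11:12027972-12028221, - strand: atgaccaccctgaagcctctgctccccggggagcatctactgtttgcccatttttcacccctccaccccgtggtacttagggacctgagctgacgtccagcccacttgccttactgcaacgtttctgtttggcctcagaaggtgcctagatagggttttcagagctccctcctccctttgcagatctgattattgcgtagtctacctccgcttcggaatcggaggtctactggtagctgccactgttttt
Grb10, upstream start, chr11:12037421-12037670, - strand: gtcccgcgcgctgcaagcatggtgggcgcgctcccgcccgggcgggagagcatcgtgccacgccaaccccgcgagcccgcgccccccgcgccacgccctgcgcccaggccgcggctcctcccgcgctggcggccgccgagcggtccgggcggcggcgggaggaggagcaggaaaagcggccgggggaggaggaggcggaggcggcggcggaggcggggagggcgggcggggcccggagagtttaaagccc
The Meg3 window shown is that of the upstream of 2 start sites, and the window of the other start, not shown, held neither motif and 0 CpGs. The window shown held 1 match of each motif and 10 CpG dinucleotides. The Rian window held neither motif and 0 CpGs. The Peg3 window held the cAMP response element and 8 CpGs, and it spans the start of Usp29 on the opposite strand. The Grb10 windows held neither motif, with 8 CpGs at the downstream start and 40 at the upstream start. Of 49 windows for the 31 imprinted genes with a RefSeq entry, 7 (14.3%) held TGCCGC, against 8.68% of 32851 windows of all genes, and 2 (4.08%) held TGACGTCA, against 1.55%. The 7 windows with TGCCGC belonged to 6 genes, since a pair of overlapping Mest windows was counted separately. The median number of CpGs was 10 in the windows of imprinted genes and 6 in all windows. Each motif holds a CpG itself, and the shares were not compared by a test. A match describes the letters only.

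Of the 36 imprinted genes, 25 passed the filter on low counts and 11 did not. The imprinted genes together held between 0.162% and 0.252% of a library's counts, and Slc38a4, an amino acid transporter of the liver, made up 60.2% of these. Levels per kilobase used the longest annotated transcript of each gene, and their order depends on that choice. On this measure the order was led by Slc38a4 (314.4 CPM per kb), Cd81 (141.5), Slc22a18 (111.0) and Gnas (57.7). Igf2r followed with 7.33 CPM per kb, Copg2 with 6.92, Snrpn with 4.16, Commd1 with 3.00 and Ube3a with 2.02. The other 16 tested genes averaged under 2 CPM per kb. At least 10 counts in every library were found for 14 genes.

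The 11 genes under the filter include growth regulators of the fetus. Igf2, the fetal growth factor, reached at most 17 counts, in WSB/EiJ replicate 2, and Dlk1, a transmembrane inhibitor of differentiation, at most 4. Airn, the antisense RNA that silences Igf2r on the paternal copy, reached 12 counts, and Ndn and Phlda2 reached 8 each. Peg10, a retrotransposon-derived gene needed in the placenta, reached 7 counts, Nap1l5 6, Usp29 5 and Zim1 4. Magel2 and Rasgrf1 were at 0 in all 27 libraries, and a count of 0 allows up to 3 counts in a library, counting error only. Phlda2, which restrains placental growth, had 8, 7 and 7 counts in CAST/EiJ and at most 6 elsewhere, too few to rank the strains.

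**Figure D1:**
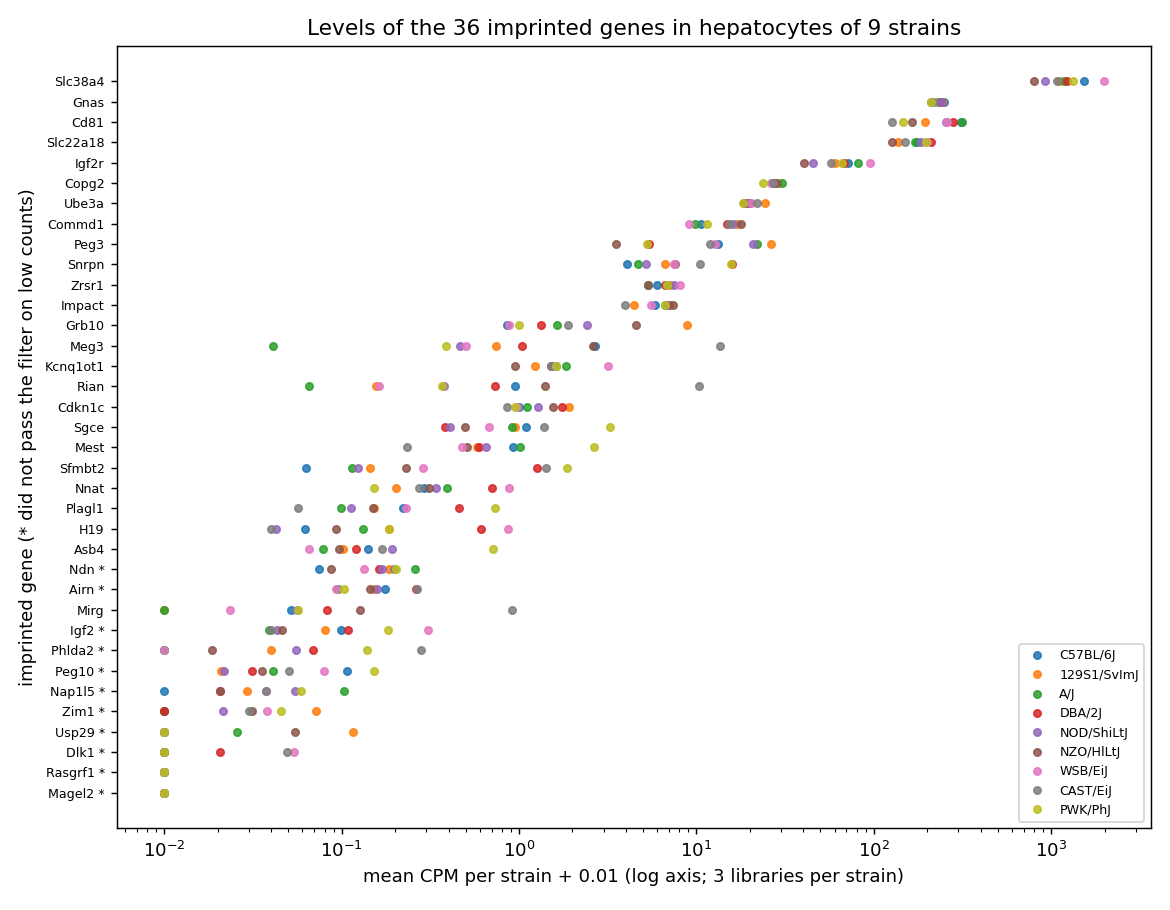
Mean level of each of the 36 imprinted genes in each strain (points, mean of 3 libraries, CPM + 0.01 on a log axis), ordered by mean over all libraries; stars mark the 11 genes that did not pass the filter. Slc38a4, Gnas, Cd81 and Slc22a18 lie above 100 CPM in all strains, and the strain means of Meg3 and Rian are spread widest.

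A test of any difference among the 9 strains (edgeR quasi-likelihood F test, Benjamini-Hochberg adjustment over 14482 genes) called 20 of the 25 tested imprinted genes. Of all genes tested, 74.2% were called, so the share of imprinted genes is near the background. H19, Mirg, Asb4 and Plagl1 averaged under 10 counts, and fewer than 3 libraries outside their highest strain reached the limit of the filter (0.353 CPM). They therefore had to differ, and their values by strain are given below without a test. Among genes that averaged at least 10 counts the test called 16 of 21, against 75.9% of all such genes. The median range of strain means was 1.30 on the log2(CPM + 0.5) scale for the tested imprinted genes and 0.945 for all tested genes, and the median within-strain SD of log2 CPM was 0.356 and 0.285. The 5 genes not called were Copg2 (adjusted p = 0.510), Ube3a (0.296), Gnas (0.248), Zrsr1 (0.188) and Impact (0.0651).

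Each strain was also compared with the mean of the 8 other strains, averaged on the log scale, in the same fit. The 9 comparisons share libraries and are not independent. In 129S1/SvImJ 3 of 25 imprinted genes were called, against 18.4% of all genes. In A/J 7 were called (27.5% of all genes), in C57BL/6J 5 (18.1%), in CAST/EiJ 8 (37.9%) and in DBA/2J 6 (13.3%). In NOD/ShiLtJ 3 were called (14.9%), in NZO/HlLtJ 9 (27.6%), in PWK/PhJ 10 (34.2%) and in WSB/EiJ 7 (24.7%). These made 58 pairs of gene and strain over 21 genes, of which 35 were called without each of the 27 libraries in turn and 23 were lost without at least 1 library. H19, Mirg, Asb4 and Plagl1 made up 5 of the 58 pairs, all of them among the 35. These pairs were H19 in DBA/2J and WSB/EiJ, Mirg in CAST/EiJ and Asb4 and Plagl1 in PWK/PhJ. They are included in the counts per strain above but are not support, since these genes passed the filter through their highest strain.

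**Figure D2:**
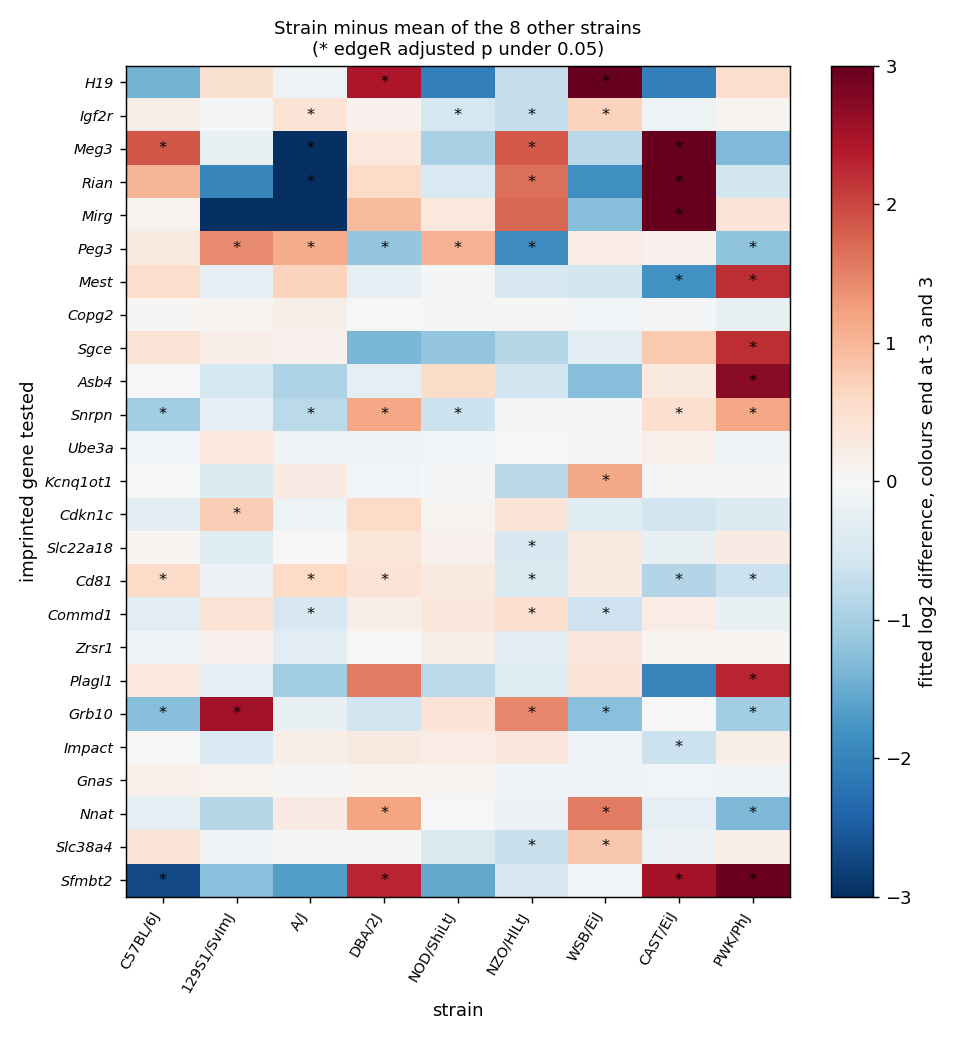
Fitted log2 difference of each strain from the mean of the 8 other strains (colour, ending at -3 and 3) for the 25 tested imprinted genes; stars mark edgeR adjusted p under 0.05. Meg3, Rian and Mirg are red in CAST/EiJ and dark blue in A/J (Mirg is unstarred there), and Copg2, Ube3a, Zrsr1 and Gnas are pale in all strains.

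The non-coding RNAs of the Dlk1-Meg3 cluster were high in CAST/EiJ and low or near 0 elsewhere. This cluster on chromosome 12 carries paternally expressed protein genes, Dlk1 among them, and maternally expressed non-coding RNAs that host small RNAs. Meg3 (chr12:109541001-109571726, + strand, GRCm38), its best known non-coding RNA, had 14.2, 15.5 and 11.03 CPM in the 3 CAST/EiJ libraries, from 481, 514 and 214 counts. The other 24 libraries held between 0 and 6.31 CPM, so the groups did not overlap. Of all tested genes, 5.25% had all 3 CAST/EiJ libraries above every other library. The CAST/EiJ mean was 13.6 ± 2.31 CPM (SD, n = 3), 12.99 times the mean of the other strains (log2 difference 4.53 ± 0.46 (SE), edgeR adjusted p = 2.13e-08).

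Rian (chr12:109603940-109661716, + strand), which hosts small nucleolar RNAs and 3 annotated miRNA hairpins, had 13.2, 9.997 and 7.68 CPM in CAST/EiJ and at most 2.66 CPM in any other library. Its CAST/EiJ mean of 10.3 ± 2.75 CPM (SD, n = 3) was 19.9 times the mean of the others (log2 difference 4.92 ± 0.43 (SE), edgeR adjusted p = 1.69e-09). Mirg (chr12:109729764-109749460, + strand), which hosts 14 annotated miRNA hairpins, had 31, 25 and 20 counts in CAST/EiJ and 0 to 7 in the other libraries, 12 of which had 0. The ratio of its mean CPM in CAST/EiJ to that of the others was 21.3, a description only, since no library outside CAST/EiJ reached the limit of the filter. The fitted log2 differences of Meg3 and Rian exceed the ratios of means because they average the other strains on the log scale, where A/J lies near 0 and its value depends on the prior count. The remaining means of Meg3 were 0.727 ± 0.130 CPM in 129S1/SvImJ, 1.02 ± 0.901 in DBA/2J, 0.454 ± 0.0881 in NOD/ShiLtJ, 0.377 ± 0.388 in PWK/PhJ, 0.493 ± 0.595 in WSB/EiJ, 2.66 ± 3.17 in C57BL/6J and 2.61 ± 2.69 in NZO/HlLtJ (SD, n = 3 each). Those of Rian were 0.147 ± 0.156, 0.722 ± 0.353, 0.368 ± 0.216, 0.355 ± 0.268, 0.152 ± 0.134, 0.938 ± 1.23 and 1.39 ± 1.11 CPM in the same order. In CAST/EiJ the endothelial sums were 72.8, 193 and 190.2 CPM and the stellate sums 33.0, 82.5 and 85.01 CPM, which ranked 7 and 8 of the 9 strains by their means.

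A/J lay at the opposite end for Meg3 and Rian. Its libraries had 0, 2 and 0 counts of Meg3, 0, 1 and 3 of Rian and 0 of Mirg. Absence of Mirg was not particular to A/J. Mirg was also at 0 in every 129S1/SvImJ library, where Rian had 10, 0 and 4 counts, and in C57BL/6J replicates 1 and 2 and WSB/EiJ replicates 2 and 4. Meg3 in A/J was called (edgeR adjusted p = 0.00522). Rian in A/J was called with an adjusted p of 0.0219 in the same edgeR test, and lost its call without A/J replicate 1 (0.0813), replicate 2 (0.0784) or replicate 3 (0.0591). With Kupffer and endothelial marker means as covariates the edgeR adjusted p of Rian in A/J was 0.0778. No fold is given for A/J, since its counts are at or near 0.

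Single libraries stood out in the same cluster. In C57BL/6J Meg3 had 21, 23 and 150 counts in replicates 1, 2 and 4, and Rian had 5, 7 and 56. Replicate 4 thus held 7.59 times the mean Meg3 CPM of the other 2 libraries and 10.3 times their Rian CPM. In NZO/HlLtJ Meg3 had 35, 48 and 178 counts and Rian 27, 32 and 83, with replicate 3 at 5.42 and 3.55 times the other 2 libraries. WSB/EiJ replicate 2 had 28 counts of Meg3, where replicates 3 and 4 had 4 and 3.

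The calls of C57BL/6J and NZO/HlLtJ rested on those libraries. Meg3 in C57BL/6J was called (adjusted p = 0.0252, edgeR) but had a log2 difference of 0.20 (adjusted p = 0.932) without replicate 4. Without replicate 3, Meg3 in NZO/HlLtJ went from an adjusted p of 0.0181 to 0.588 and Rian from 0.0268 to 0.410 (edgeR). DESeq2 gave adjusted p = 0.0530 for Meg3 in C57BL/6J and 0.0746 for Rian in NZO/HlLtJ, with log2 differences of 1.91 and 1.67 against 1.87 and 1.65 in edgeR. The endothelial sums were 196, 239 and 345 CPM in the C57BL/6J libraries and 70.0, 85.4 and 125 CPM in those of NZO/HlLtJ, and the stellate sums were 67.3, 59.9 and 98.4 and 34.0, 37.3 and 57.9 CPM. In both strains the library with the most Meg3 also had the highest sums of both lists and the lowest Kupffer sum of its strain (209.9 CPM in C57BL/6J replicate 4 against 280.7 and 259.6, and 36.3 in NZO/HlLtJ replicate 3 against 76.9 and 94.3). This did not hold in WSB/EiJ, where replicate 2 had the most Meg3. Its endothelial, stellate and Kupffer sums (182.7, 90.2 and 107.7 CPM) each lay between those of replicates 3 and 4. Fits with marker means as covariates are given as a description. The marker means come from the same libraries and differ between strains, so these fits cannot separate cell content from strain. The cause was not tested. With Kupffer and endothelial means Meg3 in C57BL/6J had a log2 difference of 1.59 (adjusted p = 0.224, edgeR), and with the stellate mean, a fit added after the data were examined, 1.48 (adjusted p = 0.0587). The calls of Meg3 and Rian in NZO/HlLtJ were kept in both fits. With replicate number as a block they were lost (edgeR adjusted p = 0.0594 and 0.0507), as was that of Meg3 in C57BL/6J (0.121).

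**Figure D3:**
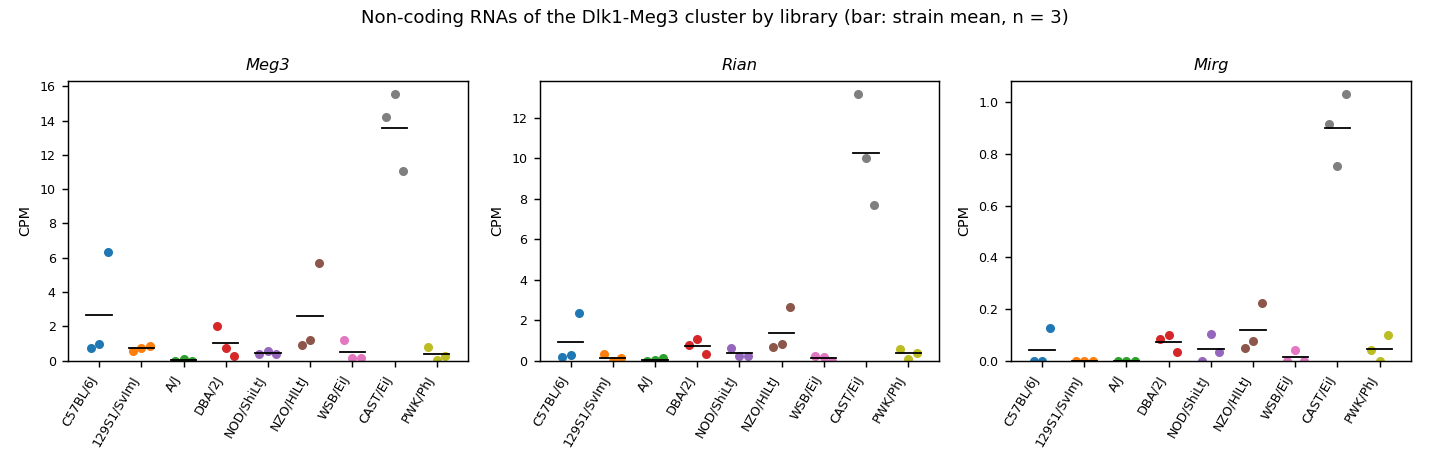
CPM of Meg3, Rian and Mirg in each of the 27 libraries (points) with the strain mean (bar, n = 3). The 3 CAST/EiJ libraries lie above all others for each gene, and replicate 4 of C57BL/6J and replicate 3 of NZO/HlLtJ lie apart from the other libraries of their strain for Meg3 and Rian.

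The levels of Meg3 and Rian ran together across strains. Over the 9 strain means of log2 CPM, Pearson's r was 0.918 (exact permutation, two-sided, p = 0.000816, 0.00530 after Benjamini-Hochberg adjustment over 13 neighbouring pairs) and Spearman's rho 0.867 (exact permutation p = 0.00451, adjusted 0.0293). Without CAST/EiJ and A/J, the 2 strains farthest from the median of Meg3, r was 0.683, so the relation rests in part on those strains. For Mirg, which is near 0 outside CAST/EiJ, r was 0.966 with Rian and 0.847 with Meg3, and 0.935 and 0.437 without CAST/EiJ and A/J; these are given as a description only. Deviations of the 27 libraries from their strain means had r of 0.711 for Meg3 and Rian, 0.577 for Rian and Mirg and 0.606 for Meg3 and Mirg, given as a description since the genes share libraries and depth. Dlk1, a protein gene of the cluster, had at most 4 counts.

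None of the other 10 neighbouring pairs was called by its correlation over strain means, by the same exact permutation test with Benjamini-Hochberg adjustment; none had an unadjusted p under 0.05, and the lowest adjusted p was 0.202, for Kcnq1ot1 with Slc22a18 (r = 0.628). Slc22a18 and Cd81, on either side of Kcnq1ot1, had r = 0.451 over the strain means and 0.890 over the deviations of libraries from their strain mean. For Mest and Copg2 r was -0.347 and for Snrpn and Ube3a -0.107.

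Grb10 (chr11:11930508-12038683, - strand) had the largest F among the imprinted genes. It had 9.30, 9.27 and 7.89 CPM in 129S1/SvImJ, above every other library, and 4.59, 4.63 and 4.52 CPM in NZO/HlLtJ. The libraries of the other 7 strains lay between 0.722 and 2.79 CPM. Of all tested genes, 0.67% had all 3 libraries of 129S1/SvImJ above every other library. The difference of 129S1/SvImJ was called (log2 difference 2.51 ± 0.14 (SE), edgeR adjusted p = 2.49e-12), as was that of NZO/HlLtJ (log2 difference 1.45 ± 0.16 (SE), edgeR adjusted p = 1.90e-07).

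At the low end of Grb10 were C57BL/6J (0.848 ± 0.0716 CPM), WSB/EiJ (0.865 ± 0.0746) and PWK/PhJ (0.987 ± 0.279; SD, n = 3 each), which were all called lower (edgeR adjusted p = 1.33e-04, 1.25e-04 and 3.57e-04). Between them and NZO/HlLtJ lay DBA/2J at 1.31 ± 0.182, A/J at 1.63 ± 0.605, CAST/EiJ at 1.88 ± 0.430 and NOD/ShiLtJ at 2.40 ± 0.493 CPM. Neighbours in this order from C57BL/6J to NOD/ShiLtJ differ by less than the sum of their SDs. All 5 Grb10 calls held without each library in turn.

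Peg3 (chr7:6703892-6730431, - strand), a paternally expressed zinc finger gene that acts on growth and maternal behaviour, had strain means that were high in 3 strains, low in 3 and between these in 3. In 129S1/SvImJ it had 46.8, 20.5 and 12.1 CPM, in A/J 18.3, 18.4 and 28.9 and in NOD/ShiLtJ 15.6, 22.6 and 24.5. It had 3.41, 3.09 and 4.04 CPM in NZO/HlLtJ, 6.95, 4.43 and 4.45 in PWK/PhJ and 7.64, 3.82 and 4.72 in DBA/2J.

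The remaining means of Peg3 were 13.2 ± 2.00 CPM in C57BL/6J, 12.7 ± 3.64 in WSB/EiJ and 12.0 ± 2.64 in CAST/EiJ (SD, n = 3 each), and none of these was called. Peg3 was called higher in 129S1/SvImJ (log2 difference 1.42 ± 0.23 (SE), edgeR adjusted p = 7.04e-05), A/J (adjusted p = 0.00116) and NOD/ShiLtJ (0.00307). It was called lower in NZO/HlLtJ (log2 difference -1.86 ± 0.31 (SE), edgeR adjusted p = 8.19e-05), PWK/PhJ (adjusted p = 0.00240) and DBA/2J (0.00793).

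129S1/SvImJ replicate 1 held 1510 counts of Peg3, against 715 and 371 in replicates 2 and 3. Without it the log2 difference of 129S1/SvImJ in the edgeR fit was 0.72 (adjusted p = 0.0460). The call in DBA/2J was lost without replicate 3 (log2 difference -0.97 in place of -1.16, adjusted p = 0.0928) or replicate 4 (-1.07, adjusted p = 0.0522). Usp29 and Zim1, the neighbours of Peg3 in its cluster, had at most 5 and 4 counts.

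Snrpn (chr7:59982495-60140219, - strand), which encodes a spliceosomal protein in the Prader-Willi region, was high in DBA/2J (14.3, 16.6 and 16.7 CPM), PWK/PhJ (13.8, 15.3 and 18.1) and CAST/EiJ (12.9, 8.03 and 10.5). In C57BL/6J it had 4.24, 5.34 and 2.61 CPM. The means were 4.69 ± 1.04 CPM in A/J, 5.18 ± 1.30 in NOD/ShiLtJ, 6.65 ± 1.06 in 129S1/SvImJ, 7.42 ± 1.03 in WSB/EiJ and 7.56 ± 0.363 in NZO/HlLtJ (SD, n = 3 each).

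The difference of DBA/2J was called (log2 difference 1.17 ± 0.15 (SE), edgeR adjusted p = 2.37e-06), as was that of PWK/PhJ (log2 difference 1.16 ± 0.15 (SE), edgeR adjusted p = 1.07e-06), and both held without each library in turn. Snrpn was lower in C57BL/6J (edgeR adjusted p = 2.41e-04) and A/J (0.00191). In NOD/ShiLtJ the call (0.0136) was lost without replicate 2 (0.118) or 3 (0.127), with log2 differences of -0.55 and -0.53 in place of -0.64. In CAST/EiJ the call (0.0148) was lost without replicate 1 (log2 difference 0.32, adjusted p = 0.230) or 5 (0.50, adjusted p = 0.0539) and with the stellate covariate (log2 difference 0.23 in place of 0.50, adjusted p = 0.251). Snrpn shares exons with Snurf, and its estimated counts were not whole in any of the 27 libraries, so its own level is uncertain. The sum of both was 17.6 ± 1.01 CPM in DBA/2J, 17.7 ± 1.80 in PWK/PhJ and 4.41 ± 1.51 in C57BL/6J (SD, n = 3 each).

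Ube3a, a ubiquitin ligase imprinted in neurons, lay between 14.0 and 26.7 CPM and was not called. Snhg14, the antisense RNA that overlaps Ube3a, had 7.12 ± 0.678 CPM in NZO/HlLtJ and 12.0 ± 2.57 in DBA/2J (SD, n = 3 each) and was called for the strain effect (edgeR adjusted p = 0.00554). The libraries are not known to keep strand, so reads of Ube3a and Snhg14 cannot be told apart where they overlap. Ndn and Magel2 had at most 8 and 0 counts.

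**Figure D4:**
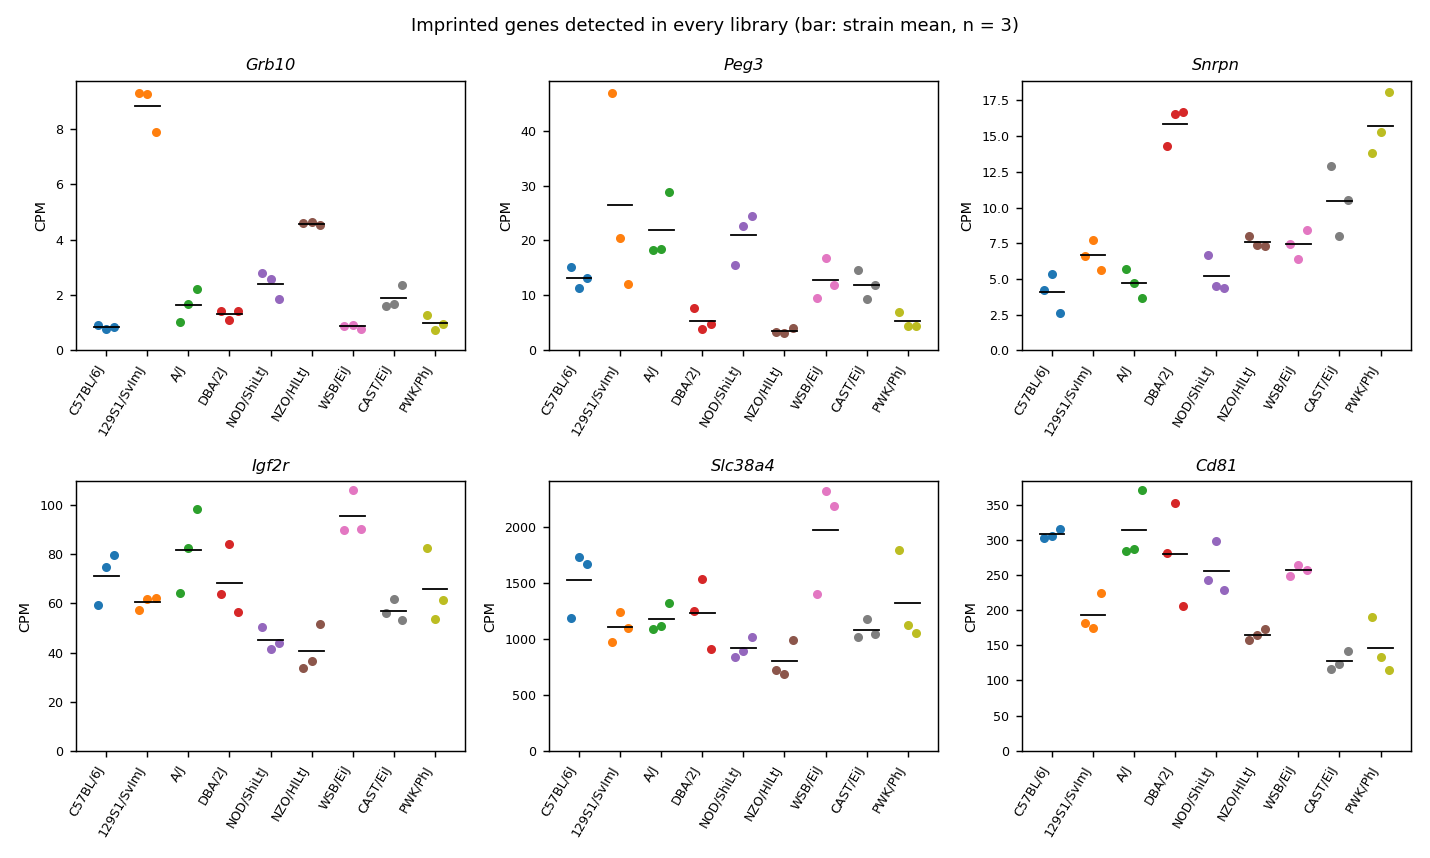
CPM of Grb10, Peg3, Snrpn, Igf2r, Slc38a4 and Cd81 in each of the 27 libraries (points) with the strain mean (bar, n = 3). Grb10 is highest in 129S1/SvImJ and NZO/HlLtJ, Snrpn in DBA/2J and PWK/PhJ, and Igf2r and Slc38a4 in WSB/EiJ.

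Slc38a4 and Igf2r were both highest in WSB/EiJ and lowest in NZO/HlLtJ. Igf2r (chr17:12682406-12769664, - strand) encodes the receptor that clears IGF2 from the cell surface. It had 89.9, 106 and 90.4 CPM in WSB/EiJ and 33.6, 36.5 and 51.5 in NZO/HlLtJ. The means were 81.8 ± 17.0 CPM in A/J, 71.2 ± 10.7 in C57BL/6J, 68.2 ± 14.4 in DBA/2J, 65.9 ± 15.0 in PWK/PhJ, 60.4 ± 2.76 in 129S1/SvImJ, 57.04 ± 4.31 in CAST/EiJ and 45.3 ± 4.59 in NOD/ShiLtJ (SD, n = 3 each). A/J replicate 3 (98.4 CPM) lay within the range of WSB/EiJ.

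Igf2r was called higher in WSB/EiJ (log2 difference 0.67 ± 0.13 (SE), edgeR adjusted p = 4.61e-04) and lower in NZO/HlLtJ (log2 difference -0.72 ± 0.15 (SE), edgeR adjusted p = 9.74e-04). In A/J (adjusted p = 0.0229) the edgeR call was lost without replicate 2 (0.0813) or 3 (0.305), and in NOD/ShiLtJ (0.0136) without replicate 2 (0.106) or 3 (0.0781). The log2 difference was then 0.41 and 0.26 in A/J, against 0.42 with all libraries, and -0.48 and -0.52 in NOD/ShiLtJ, against -0.54. With the stellate marker mean as a covariate the edgeR adjusted p of Igf2r was 0.0528 in NZO/HlLtJ and 0.178 in A/J, and with Kupffer and endothelial means it was 0.0504 in A/J, where the log2 difference was 0.40 in place of 0.42. Airn, which overlaps Igf2r on the opposite strand, had between 0 and 12 counts.

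Slc38a4 (chr15:96994820-97055956, - strand) had 1397, 2325 and 2192 CPM in WSB/EiJ and 718, 682 and 992 CPM in NZO/HlLtJ. The means of the others ran from 916 ± 90.7 CPM in NOD/ShiLtJ to 1529 ± 300.5 in C57BL/6J, with 1324 ± 408 in PWK/PhJ, 1231 ± 312 in DBA/2J, 1176 ± 128 in A/J, 1103 ± 130.2 in 129S1/SvImJ and 1079 ± 89.8 in CAST/EiJ (SD, n = 3 each). WSB/EiJ replicates 3 and 4 lay above every library of the other strains, while replicate 2 lay within their range. Slc38a4 was called higher in WSB/EiJ (log2 difference 0.81 ± 0.16 (SE), edgeR adjusted p = 5.02e-04). In NZO/HlLtJ it was called lower (adjusted p = 0.009996, edgeR), and the call was lost without replicate 1 (log2 difference -0.59 in place of -0.66, adjusted p = 0.0809) or 2 (-0.56, adjusted p = 0.0956) and with Kupffer and endothelial covariates (log2 difference -0.36, adjusted p = 0.172) or the stellate covariate (-0.32, adjusted p = 0.317).

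H19, the non-coding RNA next to Igf2 and a host of a miRNA, was also highest in WSB/EiJ, at 1.14, 0.645 and 0.783 CPM. In DBA/2J it had 3, 16 and 27 counts, so that replicate 2 differed from the other 2 libraries. The other 7 strains had at most 8 counts in a library. The mean CPM of WSB/EiJ was 5.40 times that of the other strains, a description only, since 2 libraries outside WSB/EiJ, fewer than the filter asks for, reached its limit.

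Cd81, Slc22a18, Kcnq1ot1 and Cdkn1c lie in the Kcnq1ot1 domain or at its edge on chromosome 7. Cd81 (chr7:143052739-143067934, + strand), a tetraspanin of the cell surface, was called higher in A/J (314 ± 49.1 CPM; log2 difference 0.60 ± 0.13 (SE), edgeR adjusted p = 0.00146) and C57BL/6J (308 ± 6.94, adjusted p = 0.00316). It was called lower in CAST/EiJ (127 ± 13.1 CPM; log2 difference -0.87 ± 0.15 (SE), edgeR adjusted p = 5.40e-05) and PWK/PhJ (146 ± 39.9, adjusted p = 0.00135). The means were 279.8 ± 73.0 CPM in DBA/2J, 256 ± 36.4 in NOD/ShiLtJ, 257 ± 8.24 in WSB/EiJ, 193 ± 26.8 in 129S1/SvImJ and 165 ± 7.51 in NZO/HlLtJ (SD, n = 3 each).

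Calls of Cd81 in NZO/HlLtJ and DBA/2J were lost without single libraries. In NZO/HlLtJ (adjusted p = 0.0247, edgeR) the call was lost without replicate 1 (0.124), 2 (0.104) or 3 (0.0586), with log2 differences of -0.41, -0.44 and -0.48 against -0.44 with all libraries. In DBA/2J the log2 difference of 0.41 (adjusted p = 0.0386) was 0.21 (adjusted p = 0.515) without replicate 3. The call was also lost without any of 8 other libraries, among them DBA/2J replicate 2 (0.144), but there the log2 difference stayed at 0.40 to 0.41. With Kupffer and endothelial covariates the adjusted p was 0.137 for Cd81 in C57BL/6J and 0.494 in NZO/HlLtJ, and with the stellate covariate 0.710 in NZO/HlLtJ.

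Slc22a18 (chr7:143473736-143499334, + strand), an organic cation transporter, ran from 126 ± 11.1 CPM in NZO/HlLtJ and 137 ± 20.3 in 129S1/SvImJ to 211 ± 60.4 in DBA/2J. Between these lay CAST/EiJ (149 ± 10.1), A/J (170.0 ± 38.1), C57BL/6J (175 ± 21.1), NOD/ShiLtJ (185 ± 27.4), PWK/PhJ (198 ± 56.5) and WSB/EiJ (201 ± 32.2; SD, n = 3 each). It was called lower in NZO/HlLtJ (adjusted p = 0.0325, edgeR), and the call was lost without any of its 3 libraries (0.159, 0.137 and 0.0547 without replicates 1, 2 and 3), with log2 differences of -0.43, -0.46 and -0.55. With Kupffer and endothelial covariates the log2 difference was -0.13 in place of -0.48 (adjusted p = 0.596), and with the stellate covariate -0.12 (adjusted p = 0.743).

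Kcnq1ot1 (chr7:143203458-143296549, - strand), the non-coding RNA that silences its neighbours on the paternal copy, was higher in all 3 WSB/EiJ libraries (4.26, 2.78 and 2.39 CPM) than in any other library. Its strain means were 1.82 ± 0.347 CPM in A/J, 1.59 ± 0.519 in PWK/PhJ, 1.60 ± 1.12 in C57BL/6J, 1.53 ± 0.427 in NOD/ShiLtJ, 1.505 ± 0.0915 in CAST/EiJ, 1.496 ± 0.570 in DBA/2J, 1.21 ± 0.144 in 129S1/SvImJ and 0.935 ± 0.0825 in NZO/HlLtJ (SD, n = 3 each). C57BL/6J replicate 1 had 9 counts, where replicates 2 and 4 had 52 and 56. The highest other library was C57BL/6J replicate 4, at 2.36 CPM, and 1.65% of all tested genes had all 3 libraries of WSB/EiJ above every other library. The difference of WSB/EiJ was called (log2 difference 1.13 ± 0.29 (SE), edgeR adjusted p = 0.00585), and lost without WSB/EiJ replicate 2 (log2 difference 0.85, adjusted p = 0.108). The strain effect on Kcnq1ot1 lay at the threshold (edgeR adjusted p = 0.0498) and was lost in 23 of 36 alternative fits. Its estimated counts were not whole in any of 27 libraries, and it overlaps Kcnq1 on the opposite strand.

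Cdkn1c (chr7:143458339-143461050, - strand), a cyclin-dependent kinase inhibitor that restrains growth, had 1.83, 2.32 and 1.53 CPM in 129S1/SvImJ. The means were 1.74 ± 0.278 CPM in DBA/2J, 1.53 ± 0.218 in NZO/HlLtJ, 1.27 ± 0.489 in NOD/ShiLtJ, 1.10 ± 0.351 in A/J, 0.988 ± 0.105 in C57BL/6J, 0.960 ± 0.536 in WSB/EiJ, 0.936 ± 0.0533 in PWK/PhJ and 0.840 ± 0.0892 in CAST/EiJ (SD, n = 3 each). The 129S1/SvImJ and DBA/2J libraries overlapped. Cdkn1c was called in 129S1/SvImJ (adjusted p = 0.0278, edgeR), and lost without replicate 1 (0.0941) or 2 (0.227), without the filter on low counts (0.0711) and with Kupffer and endothelial covariates (0.158). The log2 difference was 0.74 with all libraries, 0.76 and 0.57 without replicates 1 and 2, 0.73 without the filter and 0.63 with the covariates.

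In PWK/PhJ a set of genes that are low in adult hepatocytes stood above the other strains. Mest (chr6:30723547-30748465, + strand), a paternally expressed hydrolase-like gene of the mesoderm, had 3.63, 2.27 and 1.99 CPM there and at most 1.11 CPM in any other library (log2 difference 2.22 ± 0.35 (SE), edgeR adjusted p = 1.98e-05). Sgce (chr6:4674350-4747207, - strand), a sarcoglycan next to Peg10, had 5.11, 2.27 and 2.36 CPM and at most 1.91 elsewhere (log2 difference 2.21 ± 0.34 (SE), edgeR adjusted p = 1.50e-05). Asb4 (chr6:5383386-5433022, + strand), part of a ubiquitin ligase and known from vessel growth, had 24, 13 and 21 counts and at most 7 elsewhere, values given as a description since no library outside PWK/PhJ reached the limit of the filter. Mest and Sgce did not overlap between PWK/PhJ and the other strains, which held, in the upward direction, for 3.3% of all tested genes.

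The other strain means of Mest were 1.00 ± 0.0923 CPM in A/J, 0.914 ± 0.0635 in C57BL/6J, 0.642 ± 0.357 in NOD/ShiLtJ, 0.585 ± 0.453 in DBA/2J, 0.567 ± 0.195 in 129S1/SvImJ, 0.499 ± 0.289 in NZO/HlLtJ, 0.467 ± 0.0551 in WSB/EiJ and 0.223 ± 0.0969 in CAST/EiJ. Those of Sgce were 1.36 ± 0.514 CPM in CAST/EiJ, 1.08 ± 0.762 in C57BL/6J, 0.935 ± 0.493 in 129S1/SvImJ, 0.900 ± 0.351 in A/J, 0.667 ± 0.0824 in WSB/EiJ, 0.488 ± 0.0435 in NZO/HlLtJ, 0.400 ± 0.286 in NOD/ShiLtJ and 0.372 ± 0.291 in DBA/2J (SD, n = 3 each). Mest in CAST/EiJ was called lower (edgeR adjusted p = 0.0105), and lost without replicate 1 (log2 difference -1.48 in place of -1.81, adjusted p = 0.0876) and with the stellate covariate (-1.14, adjusted p = 0.0767). In DBA/2J replicate 4 Mest had 2 counts, where replicates 2 and 3 had 21 and 16.

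Markers of other liver cells were also high in PWK/PhJ. The endothelial sums were 900.4, 279.6 and 316 CPM in replicates 1, 2 and 3, and at most 345.1 CPM in any other library. The stellate sums were 208, 138 and 150.0 CPM, and at most 157.5 elsewhere. Replicate 1 was above every other library on both lists, while replicates 2 and 3 lay below C57BL/6J replicate 4 on the first and below A/J replicate 3 on the second. No marker of either list was at 0 in all libraries. By strain mean, every endothelial marker was highest in PWK/PhJ, but the stellate markers were divided. Dcn, Colec10, Pdgfrb, Ecm1 and Hgf were highest in PWK/PhJ, where Ecm1 alone had a mean of 79.1 CPM. Lrat and Des were highest in A/J, Reln and Col3a1 in DBA/2J and Col1a1 in WSB/EiJ. In bulk RNA, more cells of a type and more RNA per cell cannot be told apart.

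Without PWK/PhJ replicate 1 the log2 differences were 1.92 for Mest (adjusted p = 0.00133) and 1.72 for Sgce (0.00255; edgeR). The calls of Snrpn, Sfmbt2, Peg3, Grb10 and Cd81 in PWK/PhJ were also kept without that library, with log2 differences of 1.24 for Snrpn, 3.16 for Sfmbt2, -1.45 for Peg3, -1.26 for Grb10 and -0.88 for Cd81. Nnat lost its call (edgeR adjusted p = 0.139), with a log2 difference of -1.25 in place of -1.34. With all libraries and with Kupffer and endothelial marker means as covariates the differences were 0.97 for Mest (adjusted p = 0.1096) and 0.94 for Sgce (0.0981). The strain effect itself then had adjusted p = 0.0583 for Mest. With the stellate marker mean, an alternative added after the data were examined, they were 1.33 for Mest (0.0144) and 1.38 for Sgce (0.0128).

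Plagl1, a zinc finger regulator of growth genes, had 28, 14 and 17 counts in PWK/PhJ and up to 19 elsewhere, in DBA/2J replicate 2. Only 2 libraries outside PWK/PhJ reached the limit of the filter, so these counts are a description too. Copg2, a coat protein gene that overlaps the end of Mest on the opposite strand, lay between 22.5 and 34.3 CPM and was not called. Estimated counts of Mest and Copg2 were not whole in any of 27 libraries, so the level of Mest is uncertain to that extent.

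**Figure D5:**
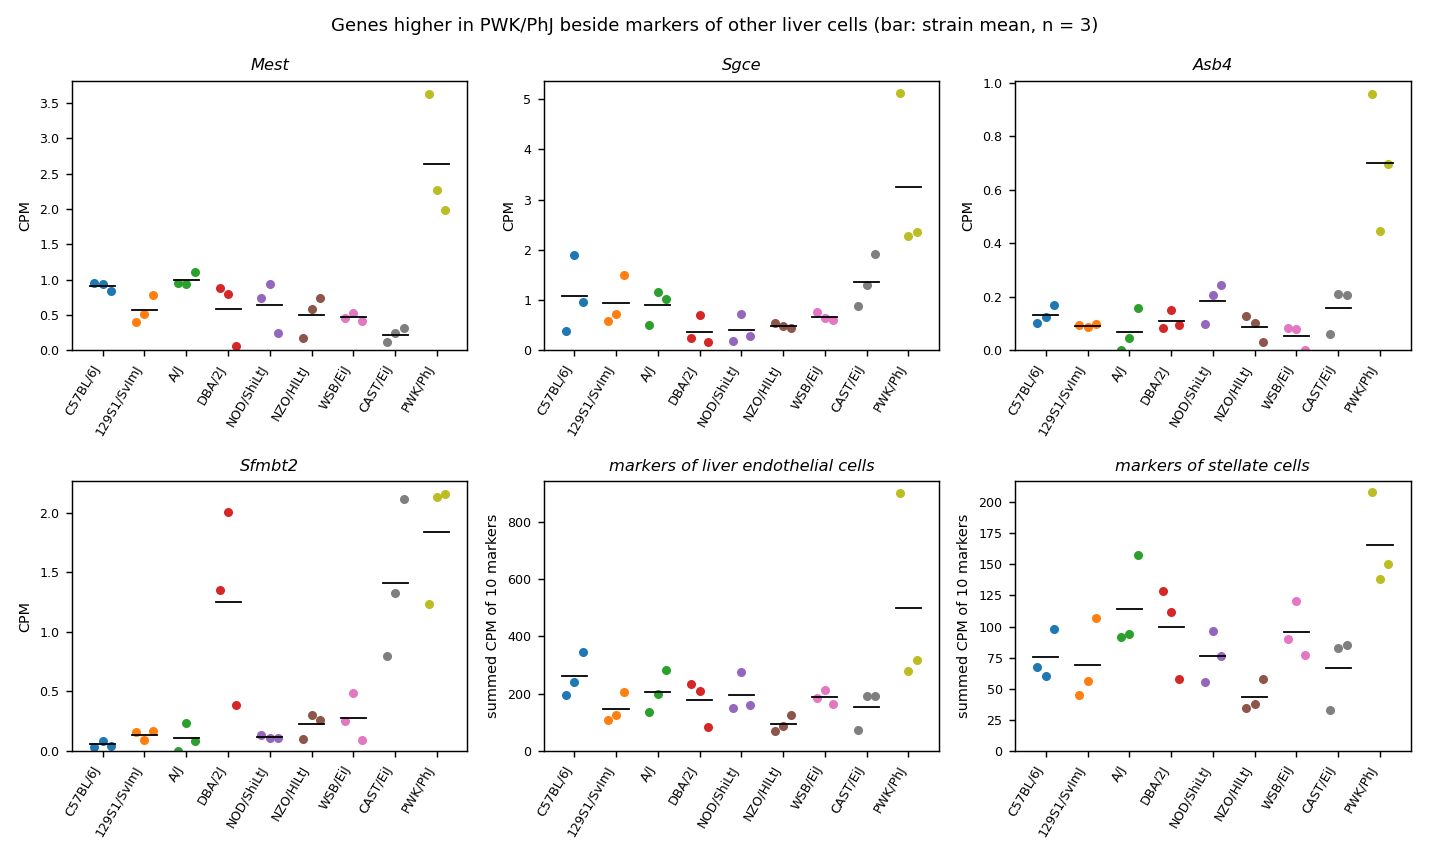
CPM of Mest, Sgce, Asb4 and Sfmbt2 and summed CPM of 10 endothelial and 10 stellate cell markers in each library (points) with the strain mean (bar, n = 3). Mest, Sgce and Asb4 are highest in PWK/PhJ, where the marker sums are highest too, while Sfmbt2 is high in PWK/PhJ, CAST/EiJ and DBA/2J.

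Sfmbt2 (chr2:10370510-10595253, + strand), a Polycomb-group gene whose intron hosts a large miRNA cluster in the mouse, was high in 3 strains. It had 1.24, 2.13 and 2.16 CPM in PWK/PhJ, 0.798, 1.33 and 2.11 in CAST/EiJ and 1.35, 2.01 and 0.383 in DBA/2J. In C57BL/6J it had 1, 2 and 1 counts, and in the other 5 strains at most 0.484 CPM. DBA/2J replicate 4, with 0.383 CPM, was the only library of the high strains inside the range of the low ones.

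Sfmbt2 was called higher in PWK/PhJ (log2 difference 2.95 ± 0.38 (SE), edgeR adjusted p = 1.19e-06), CAST/EiJ (adjusted p = 2.01e-05) and DBA/2J (2.48e-04). The low strains, whose counts are too few to order them among themselves, had 0.276 ± 0.197 CPM in WSB/EiJ, 0.221 ± 0.106 in NZO/HlLtJ, 0.135 ± 0.0424 in 129S1/SvImJ, 0.113 ± 0.0148 in NOD/ShiLtJ, 0.104 ± 0.119 in A/J and 0.0528 ± 0.0257 in C57BL/6J (SD, n = 3 each). With Kupffer and endothelial covariates the difference of PWK/PhJ was 2.41 (adjusted p = 0.00223, edgeR), and with the stellate covariate 2.45 (0.000274). C57BL/6J was called lower (adjusted p = 0.0109, edgeR), and lost its call without replicate 4 (0.0694). The log2 difference was then -2.60, against -2.72 with all libraries.

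Commd1 (chr11:22896136-22982382, - strand), which takes part in copper handling, had 18.2, 17.8 and 17.2 CPM in NZO/HlLtJ, 11.6, 11.1 and 6.597 in A/J and 8.89, 6.74 and 11.4 in WSB/EiJ. Its means were 16.9 ± 0.165 CPM in 129S1/SvImJ, 16.1 ± 1.58 in NOD/ShiLtJ, 15.1 ± 1.58 in CAST/EiJ, 14.8 ± 2.60 in DBA/2J, 11.5 ± 2.38 in PWK/PhJ and 10.6 ± 2.96 in C57BL/6J (SD, n = 3 each). It was called lower in WSB/EiJ (edgeR adjusted p = 0.00959) and A/J (0.0339) and higher in NZO/HlLtJ (0.0191). These calls were lost without WSB/EiJ replicate 3 (0.129), A/J replicate 3 (0.351), or NZO/HlLtJ replicate 1 (0.0942), 2 (0.0819) or 3 (0.0503), respectively. The log2 difference was then -0.44 in WSB/EiJ and -0.27 in A/J, against -0.61 and -0.49 with all libraries, and 0.47, 0.49 and 0.51 in NZO/HlLtJ. With Kupffer and endothelial covariates the log2 difference in NZO/HlLtJ was 0.19 in place of 0.49 (adjusted p = 0.453). With the stellate covariate the adjusted p was 0.728 in NZO/HlLtJ and 0.173 in A/J. Estimated counts of Commd1 were not whole in any of the 27 libraries, and Gm28048, which overlaps it on the same strand, had a mean of 7.61 CPM, so the level of Commd1 is uncertain. Zrsr1, an intronless splicing factor gene that lies inside Commd1 on the opposite strand, lay between 4.20 and 9.56 CPM and was not called. Its estimated counts were not whole in 16 libraries.

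Nnat, a small membrane protein gene of the brain, had at most 26 counts in any library. It was called higher in WSB/EiJ (17, 26 and 18 counts; edgeR adjusted p = 0.00291) and DBA/2J (0.0382) and lower in PWK/PhJ (0.0419). The DBA/2J call was lost without any of 8 libraries, its replicate 2 giving the highest adjusted p (0.433). The log2 difference of 1.19 was 0.77 without that replicate and 1.17 to 1.32 without the others. The PWK/PhJ call was also lost without any of 8, its replicate 3 giving the highest adjusted p (0.171). The log2 difference of -1.34 was -1.14 without that replicate and -1.71 to -1.25 without the others. Without the filter on low counts the DBA/2J and PWK/PhJ calls were lost too (0.0906 and 0.0938), with log2 differences of 1.20 and -1.35. Impact, a regulator of the response to amino acid shortage, lay between 2.96 and 10.7 CPM. It was called lower in CAST/EiJ (edgeR adjusted p = 0.0231) but not for the strain effect, and the CAST/EiJ call was lost without replicate 1 (log2 difference -0.46, adjusted p = 0.191) or 5 (-0.60, adjusted p = 0.0950), with Kupffer and endothelial covariates (0.0963) and with the stellate covariate (0.0656); in these covariate fits the log2 difference was -0.56 and -0.60, against -0.65 without them. Gnas, the stimulatory G protein subunit, lay between 197.5 and 279.7 CPM; its range of strain means was wider than that of only 0.649% of all tested genes. DESeq2 called Gnas (adjusted p = 0.0379) where edgeR did not.

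Genes that set or maintain imprints were compared in the same fit. Of 26 such genes 22 were tested and 12 were called for the strain effect by the edgeR test, against 74.2% of all genes. Setdb1, a histone methyltransferase recruited by TRIM28, had the largest F, with 26.3 ± 3.33 CPM in PWK/PhJ and 9.79 ± 1.30 in NOD/ShiLtJ (SD, n = 3 each; adjusted p = 3.49e-06). It was followed by the DNA methyltransferase Dnmt3b (6.67 ± 1.75 CPM in PWK/PhJ, 1.99 ± 0.836 in C57BL/6J; adjusted p = 0.000667), the histone demethylase Kdm1b (0.00137), the CTCF paralogue Ctcfl (0.00442) and Trim28 (0.00676). Dnmt1, which copies methylation at cell division, and Ctcf were not called (adjusted p = 0.128 and 0.139). Zfp57 had at most 10 counts and was not tested. These 3 genes were named after their values were seen.

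Of 52 other imprinted genes or neighbours of imprinted genes, 48 were in the table, 32 were tested and 28 were called for the strain effect (edgeR), against 74.2% of all genes. The 3 with the largest F lie in the region of Peg10, Sgce and Asb4 on chromosome 6. Pon2, a lactone hydrolase, had 3.75 ± 0.308 CPM in CAST/EiJ and 54.1 ± 6.28 in A/J (SD, n = 3 each; adjusted p = 3.41e-13). Ppp1r9a, an actin-binding protein gene, had 26.7 ± 7.14 CPM in PWK/PhJ and 5.91 ± 0.477 in A/J, the next highest strain (adjusted p = 1.84e-12). Tfpi2, a protease inhibitor gene, was lowest in PWK/PhJ at 10.3 ± 2.05 CPM and highest in NZO/HlLtJ at 44.1 ± 5.41 (adjusted p = 1.81e-10). Pon3 ran from 26.2 ± 1.88 CPM in WSB/EiJ to 88.2 ± 10.9 in A/J (adjusted p = 7.14e-09), and Slc22a2, an organic cation transporter gene near Igf2r, had 1.505 ± 0.0785 CPM in PWK/PhJ and at most 0.0580 ± 0.0726, in NOD/ShiLtJ, elsewhere. Slc22a2 passed the filter through PWK/PhJ alone, so its values are a description; without it 27 of 31 were called.

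Across the tested imprinted genes, the number that departed by at least 1 on the log2 CPM scale from the mean of the other 2 libraries of the strain ran from 0 to 6 of 25 per library. It was 6 in C57BL/6J replicate 4, DBA/2J replicate 4, NZO/HlLtJ replicate 3 and WSB/EiJ replicate 4. The share of all tested genes that departed this far was 5.91%, 11.5%, 7.32% and 8.56% in those libraries. Over all 27 libraries that share ran from 4.46% to 13.01%, the latter in PWK/PhJ replicate 1, where 4 imprinted genes departed.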

How the data were processed

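RNA was extracted with a column kit and made into libraries with a TruSeq RNA version 2 kit after selection for polyadenylated RNA, per the labels' protocols. The authors deposited estimated counts per Ensembl gene, not scaled to depth, of which 11.1% were not whole (tolerance 1e-06). The submitters' processing notes name FastQC 0.11.5, DESeq2, GRCm38 and mm10. The aligner, the counter, strand settings and whether reads were aligned to each strain's own genome are not given in the sources used here, and these can alter counts of divergent strains. Counts were rounded, and symbols and coordinates are those of GENCODE M21 (GRCm38).

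edgeR 4.0.16 in R 4.3.3 was fitted to all 27 libraries with strain as the only factor (filterByExpr, TMM, glmQLFit, glmQLFTest), after the fit was tested on simulated data. It left 14482 genes, called at an adjusted p under 0.05. CPM uses TMM-scaled library sizes, and log2 CPM a prior count of 2. P-values measure the spread between these libraries. The imprinted genes, gene lists and tests were chosen with earlier results of these data known. All 36 genes are named. Values by library or strain are given for called genes with a strain mean of at least 1 CPM, and in other lists for up to 5 called genes of largest F. Alternatives were DESeq2 1.42.0, its size factors, other filters, a replicate block, unrounded counts, marker means as covariates, a GC trend (99.1% of genes had a value), other correlation settings and leaving out each library.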

Additional observations from a re-analysis of the deposited data

How the results depend on the processing

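Of 25 tested imprinted genes, 17 kept their side of the threshold for the strain effect, called or not, under all 36 alternatives (35 for H19, Mirg, Asb4 and Plagl1, which a filter at a mean of 10 counts removes). Kcnq1ot1 lost it in 23, Slc22a18 in 6, Cdkn1c and Plagl1 in 2 each and Asb4 and Mest in 1 each, while Impact gained it in 6 and Gnas in 1. No called difference changed sign. The replicate block ended the calls of Meg3 in C57BL/6J and NZO/HlLtJ, Rian in NZO/HlLtJ and Mest, Snrpn and Impact in CAST/EiJ. It also ended Cd81 and Nnat in DBA/2J, Nnat in PWK/PhJ and Commd1 in A/J (edgeR adjusted p 0.0507 to 0.137). The log2 differences were then 1.78, 1.74, 1.59, -1.66, 0.48, -0.63, 0.42, 1.09, -1.36 and -0.49 in this order. Without the block they were 1.87, 1.83, 1.65, -1.81, 0.50, -0.65, 0.41, 1.19, -1.34 and -0.49. Counts of imprinted genes called in a strain moved by over 1.5 times in these fits: 5 in place of 8 in CAST/EiJ with the replicate block; 3 in place of 5 in C57BL/6J, 7 in place of 3 in NOD/ShiLtJ and 5 in place of 9 in NZO/HlLtJ with Kupffer and endothelial covariates; 5 in place of 3 in 129S1/SvImJ with the GC trend removed; and 4 in place of 9 in NZO/HlLtJ with the stellate covariate, which was added after seeing the data. The cause was not tested. Leaving out each library gave 10352 to 11245 genes called for the strain effect, the lowest without CAST/EiJ replicate 1. Of the imprinted genes 17 to 21 were called, the lowest without 129S1/SvImJ replicate 2. The counts per strain were 2 to 5 in 129S1/SvImJ, 4 to 8 in A/J, 3 to 7 in C57BL/6J, 5 to 9 in CAST/EiJ, 4 to 7 in DBA/2J, 1 to 4 in NOD/ShiLtJ, 4 to 10 in NZO/HlLtJ, 9 to 10 in PWK/PhJ and 6 to 8 in WSB/EiJ. The counts of 1, 2 and 3 came without NOD/ShiLtJ replicate 3, 129S1/SvImJ replicate 1 and C57BL/6J replicate 4, and the lowest counts of A/J, CAST/EiJ, DBA/2J, NZO/HlLtJ, PWK/PhJ and WSB/EiJ without A/J replicate 3, CAST/EiJ replicate 1, CAST/EiJ replicate 4, NZO/HlLtJ replicate 3, 129S1/SvImJ replicate 1 and WSB/EiJ replicate 2. The correlation of Meg3 and Mirg was 0.799 with a prior count of 0.5. Over deviations from strain means the correlation was 0.711 for Meg3 and Rian, 0.606 for Meg3 and Mirg, 0.577 for Rian and Mirg, -0.00501 for Mest and Copg2, 0.493 for Snrpn and Ube3a, -0.304 for Kcnq1ot1 and Cdkn1c, 0.340 for Kcnq1ot1 and Slc22a18, 0.179 for Cdkn1c and Slc22a18, 0.890 for Slc22a18 and Cd81 and 0.396 for Commd1 and Zrsr1. Without the 2 strains farthest from the median it was 0.683 for Meg3 and Rian, 0.437 for Meg3 and Mirg, 0.608 for Mest and Copg2, -0.0829 for Sgce and Asb4, 0.620 for Snrpn and Ube3a, 0.289 for Kcnq1ot1 and Slc22a18, -0.0318 for Kcnq1ot1 and Cd81, -0.576 for Cdkn1c and Slc22a18 and 0.114 for Commd1 and Zrsr1. Replicate numbers share only a name: same-numbered libraries of different strains had a mean correlation of deviations of 0.01004 over 76 pairs, other pairs -0.00315 over 248, and 7 of 27 libraries correlated best with a same-numbered library. At this depth levels resting on under about 10 counts in a library are imprecise. Some calls above rest on such counts and share that limit, among them Meg3 and Rian in A/J, Mest in CAST/EiJ, Sfmbt2 in C57BL/6J and Nnat in PWK/PhJ.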

Other observations

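Among 10 genes of the fetal liver and their regulators, 5 were tested and 4 were called for the strain effect (edgeR), against 74.2% of all genes. Gpc3, a glypican of the fetal liver, was highest in WSB/EiJ, where H19 was highest too, at 0.663 ± 0.195 CPM, and had 0.374 ± 0.210 CPM in A/J (SD, n = 3 each), given without a test, since 1 library outside WSB/EiJ reached the limit of the filter on low counts; without it 3 of 4 were called. Igf2bp2, an RNA-binding protein that binds Igf2 mRNA, had 5.67 ± 0.851 CPM in CAST/EiJ and 1.66 ± 0.462 in A/J, the next highest strain (adjusted p = 6.46e-08). Afp, the fetal albumin relative, ran from 0.481 ± 0.202 CPM in NOD/ShiLtJ to 1.23 ± 0.274 in NZO/HlLtJ (adjusted p = 0.0322). Zhx2, a repressor of Afp and H19 in the adult liver, ran from 6.50 ± 0.612 CPM in A/J to 11.6 ± 0.674 in CAST/EiJ (adjusted p = 0.00390). Lin28b was at 0 in all libraries and Igf2bp1 had at most 1 count; both were named after their values were seen.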
